A study of Mus musculus with 15 samples.

Results

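The 7 genes described, of 18194 named on the array, are subunits of the NADPH oxidase enzymes and their Rac partners: Cybb and Cyba, which encode the membrane flavocytochrome; Ncf1 and Ncf4, which encode cytosolic subunits; the small GTPases Rac1 and Rac2; and Nox4. They were taken as every probe set whose gene symbol in the array annotation is one of these names, which gave 15 of the 45101 probe sets on the array. Their signals were measured in the livers of 15 male C57BL/6J mice that were 8 weeks old when the diets began and ate them for 12 weeks. The 5 NC mice ate CRF-1, a standard rodent chow. The 5 CL mice ate a diet in which CRF-1 made up 38.23% and cocoa butter 60%, with cholesterol at 1.25% and sodium cholate at 0.5%, which the study used as a mouse model of steatohepatitis. The 5 CL+CX mice ate the CL diet with the xanthophyll β-cryptoxanthin, given as 0.003% in the treatment text and as 0.005% in the sample titles. The comparisons asked how the CL diet changed the oxidase genes, and whether β-cryptoxanthin changed them in mice on the CL diet.

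The phagocyte NADPH oxidase moves electrons from NADPH across a membrane onto oxygen and so makes superoxide. In resting macrophages and neutrophils the flavocytochrome sits in the membrane, and the cytosolic subunits join it together with active Rac when the cell is stimulated. Cybb and the genes of the cytosolic subunits are used mainly by cells of the myeloid lineage, which in the liver include Kupffer cells and recruited monocytes. Nox4 is a relative of Cybb that needs Cyba but no cytosolic subunit, makes mainly hydrogen peroxide, and is known in hepatocytes and in stellate cells. Rac1 is used by nearly all cells, whereas Rac2 is used mainly by blood cells.

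Each mouse gave 1 array. Signals were scaled so that the 75th percentile of every array was 54.1, and array medians then lay between 11.3 and 13.5. A probe set was tested if it reached the array median in all 5 mice of at least 1 diet, which 11 of the 15 probe sets did, among 20342 on the array. The 4 that did not were Ncf1 1451767_at and 1425609_at, Rac1 1437674_at and Rac2 1440208_at. Where a gene had several tested probe sets, the one with the highest mean signal stood for it among 10521 genes. The arrays correlated within their diet at a mean r of 0.957 to 0.972, except CL replicate 2, at 0.941. All 7 tested hepatocyte markers lay above the array median in every mouse. Whole liver was measured, so more cells of a type and more RNA per cell cannot be told apart.

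Promoter windows were examined because PU.1 and interferon regulatory factors are known to act at phagocyte oxidase promoters. Of the 7 genes, Cybb, Cyba, Ncf1 and Nox4 had a RefSeq window of 300 bases, 250 before and 50 after the annotated start, on GRCm38.p6, and Ncf4, Rac1 and Rac2 are not shown. The Cybb window lies inside the span RefSeq gives for the gene, so its start may be one of several. The motifs were searched on both strands: GAGGAA and its extension GAGGAAGT, which hold the core bound by PU.1 and its relatives, and GAAANNGAA, an interferon regulatory factor repeat. The Cybb and Ncf1 windows are shown, on the strand of the gene and 5′ to 3′, with the matches in capitals, since these were the windows with a match.
Cybb, chrX:9469275-9469574, minus strand: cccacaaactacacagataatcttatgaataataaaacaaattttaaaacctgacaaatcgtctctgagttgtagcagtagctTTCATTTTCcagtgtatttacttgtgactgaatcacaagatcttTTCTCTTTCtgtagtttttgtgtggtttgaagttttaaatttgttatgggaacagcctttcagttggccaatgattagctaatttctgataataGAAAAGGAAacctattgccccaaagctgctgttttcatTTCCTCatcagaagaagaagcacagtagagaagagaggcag
Ncf1, chr5:134229576-134229875, minus strand: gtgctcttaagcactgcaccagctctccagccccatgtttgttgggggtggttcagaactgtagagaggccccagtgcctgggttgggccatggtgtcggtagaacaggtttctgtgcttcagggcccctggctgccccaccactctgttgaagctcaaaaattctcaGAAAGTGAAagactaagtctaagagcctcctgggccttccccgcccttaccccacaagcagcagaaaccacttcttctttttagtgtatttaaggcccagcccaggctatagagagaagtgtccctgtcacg
The Cybb window held GAAANNGAA 3 times, at bases -167 to -159 and -123 to -115 on the opposite strand and at -29 to -21 on the strand of the gene, counted from the start that the window uses. It also held GAGGAA once, at 10 to 15 after the start on the opposite strand. The Ncf1 window held GAAANNGAA once, at -82 to -74, and no GAGGAA. Neither motif was found in the Cyba or Nox4 window, and GAGGAAGT, which contains GAGGAA, was found in none of the 4. Of 32851 windows of this length, 8.56% held GAAANNGAA, 0.0639% held it at least 3 times, 28.3% held GAGGAA and 3.2% held GAGGAAGT. A match in these letters is a description of the sequence and not a measured site of binding.

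The CL diet raised the genes of the phagocyte oxidase. Cybb, Cyba, Ncf1, Ncf4 and Rac2 were higher in CL than in NC, by 2.6 to 5.38-fold, and Rac1 and Nox4 did not pass the test. The rise was therefore called in 5 of 7 genes by limma (Benjamini-Hochberg adjusted p under 0.05), beside 7.2% of all genes tested that were called higher in CL. By the methods' test 4 rises were called, all of these but Ncf4, and at an unadjusted p under 0.05 there were 5. For neither criterion was the share over all genes counted, so these counts cannot be set against 7.2%. No fall was called in any of these ways. At the probe sets that stand for the same 5 genes every CL mouse lay above every NC mouse, which was so for 6.1% of all genes. The median log2 difference was 1.49 over the 7 genes and -0.08 over all genes.

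Cyba encodes the small subunit that stabilises the flavocytochrome and docks the cytosolic subunits. Its scaled signal (1454268_a_at) was 43.4, 63.6, 66.1, 62.3 and 43.5 in NC replicates 1 to 5, and 273.5, 294.4, 313.5, 326.9 and 270.3 in the CL mice. In the CL+CX mice it was 211.2, 107.4, 67.4, 110.8 and 153.9. All CL mice lay far above all NC mice, and the 3 diets did not overlap, although CL+CX replicate 3 lay just above the NC mice. Against NC, the CL diet raised Cyba 5.38-fold (log2 difference 2.43, SE 0.24, adjusted p = 4.79e-05). In log2 units the SD was 0.31 in NC, 0.12 in CL and 0.62 in CL+CX (n = 5 each).

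Cybb encodes the large subunit, which carries the electrons. Its scaled signal (1436778_at) was 39.6, 110.1, 64.8, 82.5 and 58.9 in NC replicates 1 to 5, and 272.7, 252.6, 253.1, 353.1 and 307.2 in the CL mice. With β-cryptoxanthin (CL+CX) the 5 signals were 218.6, 138.7, 117.6, 129.5 and 242.2. The diets did not overlap here either: NC mice were lowest, CL mice highest, and CL+CX mice between them, with replicates 1 and 5 close to the CL mice. Cybb was 4.24 times as high in CL as in NC (log2 difference 2.09, SE 0.25, adjusted p = 0.000145). The other Cybb probe sets gave log2 differences of 1.70 (1436779_at, adjusted p = 0.000304) and 1.75 (1422978_at, adjusted p = 0.00408), so all 3 were called higher. At these other probe sets the CL+CX mice overlapped both the NC and the CL mice.

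Ncf1 encodes the organiser subunit, which is phosphorylated when a phagocyte is stimulated and carries the cytosolic complex to the membrane. Its signal (1456772_at) was 17.8, 26.1, 21.5, 38.0 and 33.0 in NC replicates 1 to 5, and 83.9, 61.2, 89.5, 92.4 and 93.9 in the CL mice. The CL+CX mice gave 63.7, 41.4, 37.1, 49.7 and 52.3. The CL mice lay above all NC mice, but CL replicate 2 stood below the other CL mice and below CL+CX replicate 1. Its CL mean exceeded the NC mean 3.17-fold (log2 difference 1.66, SE 0.21, adjusted p = 0.00016). Both untested probe sets were below the array median in all NC mice, and their CL means were at least 1.59-fold (1451767_at) and at least 1.24-fold (1425609_at) above NC. At 1451767_at the CL and NC mice overlapped.

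Ncf4 encodes a further cytosolic subunit, which binds a phosphoinositide of the phagosome membrane. Its signal (1418465_at) was 8.3, 16.7, 37.8, 33.1 and 37.1 in NC replicates 1 to 5, and 60.3, 47.4, 52.6, 71.4 and 72.0 in the CL mice. For CL+CX the signals were 45.7, 29.2, 41.4, 35.9 and 31.3. CL mice lay above all others, while NC and CL+CX mice overlapped, and NC replicate 1 was below its array's median. The CL mean of Ncf4 was 2.6-fold that of NC (log2 difference 1.38, SE 0.34, adjusted p = 0.0155). This was the least certain of the 5 rises: with no filter on low signals, with the β-actin difference described below as a covariate, and by the methods' test, the adjusted p was 0.0638, 0.063 and 0.0634, within a range of 0.00316 to 0.0638 over the alternatives that keep all mice.

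Rac2 is the GTPase of the oxidase in blood cells. Its signal (1417620_at) was 23.1, 19.6, 22.9, 15.9 and 25.4 in NC replicates 1 to 5, and 51.3, 44.5, 72.0, 79.0 and 56.9 in the CL mice. Signals of the CL+CX mice were 53.7, 16.9, 18.5, 26.1 and 41.1. CL and NC mice did not overlap, whereas the CL+CX mice spanned from the NC level to within the CL range. The rise of Rac2 in CL over NC was 2.82-fold (log2 difference 1.49, SE 0.28, adjusted p = 0.0033). The other Rac2 probe set (1440208_at) was untested, with signals of 0.265 to 19.4 over the 15 mice. There the CL and NC mice overlapped, with a log2 difference of 0.47.

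Rac1, the GTPase shared by most cells, gave no call in any comparison. Its signal (1451086_s_at) was 938.3, 966.2, 992.8, 819.4 and 815.8 in NC replicates 1 to 5, and 938.7, 837.5, 813.1, 831.9 and 937.4 in the CL mice. The CL+CX signals were 818.7, 887, 837.9, 784.3 and 790.0, so all 3 diets overlapped. The suffix of this probe set marks probes that can match transcripts of more than 1 gene. The log2 difference of CL from NC was -0.05, with a 95% interval of -0.26 to 0.15. The second tested probe set (1423734_at) gave 0.00 for the same comparison, with an interval of -0.24 to 0.24, and the third was below the array median in every mouse.

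Nox4, the oxidase that works without the cytosolic subunits, gave no call either. Its signal (1451827_a_at) was 404.5, 393, 396.4, 280.2 and 546.8 in NC replicates 1 to 5, and 380.4, 454.6, 347.6, 276 and 382.2 in the CL mice. Those of CL+CX were 327.5, 401.7, 489.4, 350.2 and 377.5, and all 3 diets overlapped. The log2 difference of CL from NC was -0.12, with a 95% interval of -0.49 to 0.25, and at the second probe set (1419161_a_at) it was -0.19, with an interval of -0.54 to 0.17. With the signals as deposited, which moved the median probe set up by 0.32 log2 units in this comparison, Rac1 1451086_s_at and both Nox4 probe sets turned from below to above 0 (0.26, 0.19 and 0.13). With quantile normalization only Rac1 1451086_s_at of them did (0.066), and Rac1 1423734_at was above 0 under all 3 scalings.

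**Figure D1:**
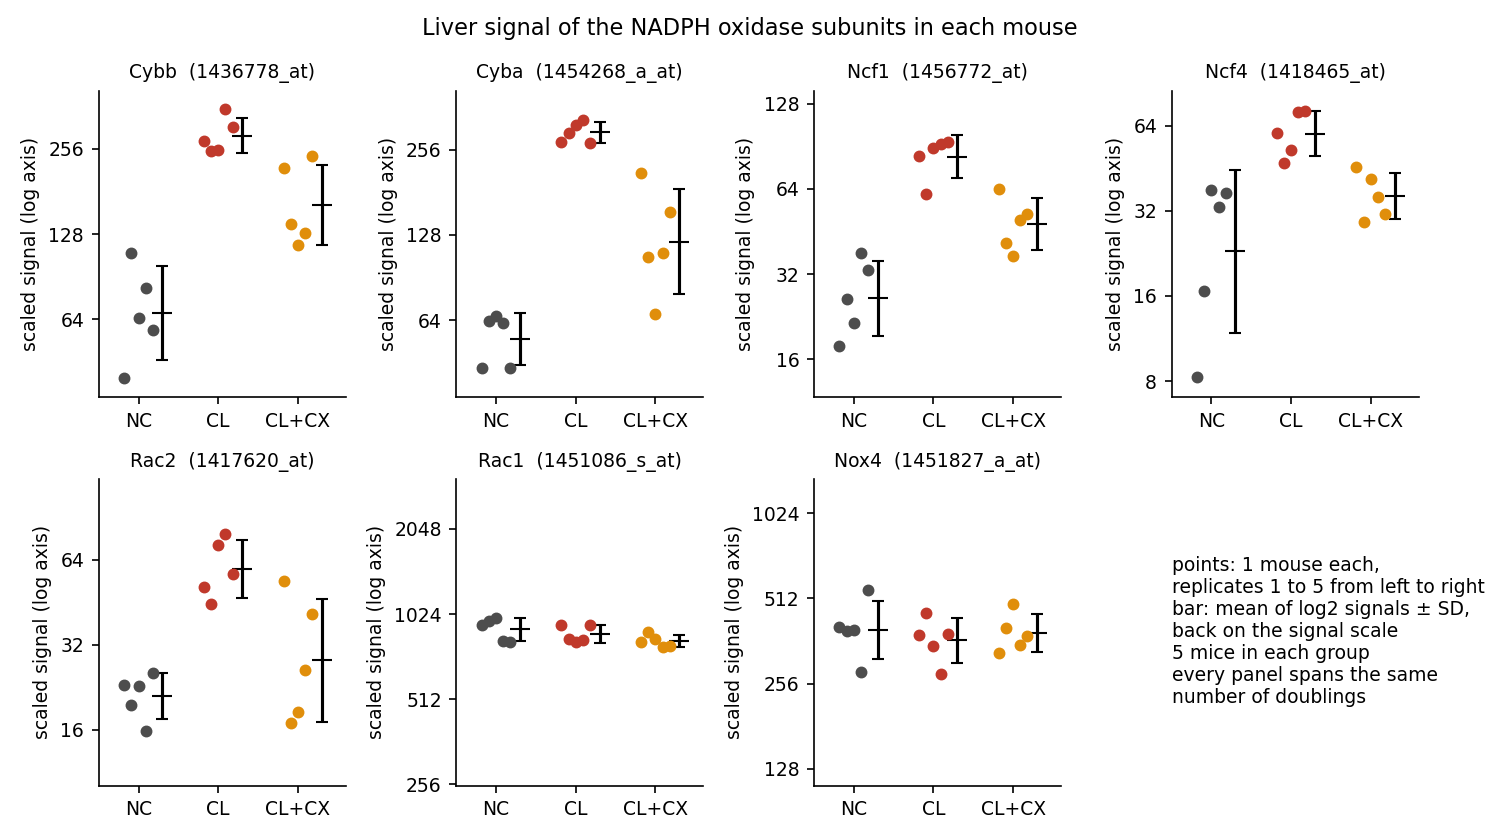
Scaled liver signal (vertical axis, log scale, the same number of doublings in every panel) of the probe set that stands for each gene, with 1 point per mouse and the mean of log2 signals ± SD beside each diet (5 mice each). CL points lie above all NC points for Cybb, Cyba, Ncf1, Ncf4 and Rac2, and the diets overlap for Rac1 and Nox4.

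With β-cryptoxanthin added to the CL diet, the genes that had risen were lower again, and the call was made for 2 of them. Compared with the CL mice, Cyba fell 2.44-fold in CL+CX (log2 difference -1.28, SE 0.24, adjusted p = 0.016), and Ncf1 fell 1.74-fold (-0.79, SE 0.21, adjusted p = 0.0489). The fall was thus called in 2 of 7 genes, beside 1.78% of all genes, and no rise was called. At an unadjusted p under 0.05 there were 5 falls and 0 rises, and by the methods' test 3 falls, Cybb being the third, and 0 rises. The share over all genes was not counted by these criteria either, and 1.78% does not apply to them. The groups did not overlap for Cyba, Cybb and Ncf4, with CL+CX lower, beside 2.3% of all genes. The median log2 difference was -0.79 over the 7 genes and 0.02 over all genes.

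Rac2 and Cybb were lower by a similar amount without passing the test. The log2 difference of Rac2 was -1.07 (SE 0.28, adjusted p = 0.0503, 95% interval -1.67 to -0.47). For Cybb it was -0.82 (SE 0.25, adjusted p = 0.0917), and the other Cybb probe sets gave -0.83 (adjusted p = 0.0625) and -1.11 (adjusted p = 0.0881). For Ncf4 it was -0.73 (SE 0.34, adjusted p = 0.249), with an interval of -1.45 to -0.01. Without CL+CX replicate 1, or without replicate 5, Rac2 passed (-1.31, adjusted p = 0.0158, and -1.21, adjusted p = 0.0481). These were the CL+CX mice with the highest Rac2 signals. Rac2 passed in only these 2 of the 15 fits without 1 mouse, where its adjusted p ran from 0.0158 to 0.138. None of the 95% intervals of Rac2, Cybb and Ncf4 reached 0. With all mice, Cybb passed by the methods' test (adjusted p = 0.0324), with the filter at the array 75th percentile (0.0465), with 16 added to every signal in place of the floor (0.0395) and with gene means (0.0466), in a range of 0.0324 to 0.955 over the alternatives. Rac2 passed with 16 added (0.0246), with a trended and robust prior (0.0348) and with gene means (0.0426), in a range of 0.0246 to 0.93. Ncf4 passed in no alternative that keeps all mice (0.0528 to 0.933).

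Rac1 and Nox4 gave small differences between CL+CX and CL. For Rac1 the log2 difference was -0.08 (interval -0.29 to 0.13) at 1451086_s_at and -0.25 (interval -0.50 to -0.01, adjusted p = 0.234) at 1423734_at. For Nox4 it was 0.08 (interval -0.29 to 0.46) at 1451827_a_at and 0.02 at 1419161_a_at (interval -0.33 to 0.38).

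The 2 falls did not rest equally firmly on the data. The call of Ncf1 was lost when any of 11 of the 15 mice was left out (adjusted p 0.0339 to 0.135), that is, any but NC replicates 1 and 4, CL replicate 2 and CL+CX replicate 1. That of Cyba was kept without each mouse in turn (adjusted p 0.00525 to 0.0487). The β-actin control probe sets gave a 3′ minus 5′ log2 difference, a sign of RNA integrity and labelling, of 0.842 to 1.05 in NC, 0.699 to 0.945 in CL and 0.949 to 1.17 in CL+CX, so that CL and CL+CX did not overlap. With this difference as a covariate, the log2 difference of CL+CX from CL was -0.92 for Cyba (adjusted p = 0.859) and -0.41 for Ncf1 (adjusted p = 0.931), the highest values in ranges of 0.00308 to 0.859 and 0.0148 to 0.931 over the alternatives that keep all mice, and no member was called. Its part in the falls cannot be told apart from the diet. With no filter on low signals neither fall was called (adjusted p = 0.0981 for Cyba and 0.19 for Ncf1).

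Cyba and Ncf1 were the members that returned, in the sense that the CL diet raised them, β-cryptoxanthin lowered them, both with a call, and their mean with β-cryptoxanthin was nearer to NC. That was 2 of 7 genes, beside 0.979% of all genes. The CL and CL+CX comparisons share the CL mice, so they are not independent. Against NC, the CL+CX mice remained higher in Cybb (2.41-fold, log2 difference 1.27, adjusted p = 0.00695), Cyba (2.21-fold, 1.14, adjusted p = 0.00858) and Ncf1 (1.82-fold, 0.87, adjusted p = 0.0168). These were 3 of 7 genes, beside 5.11% of all genes called higher. Ncf4 (0.65, adjusted p = 0.232) and Rac2 (0.42, adjusted p = 0.359) were not called, nor were Rac1 (-0.13, adjusted p = 0.403) and Nox4 (-0.04, adjusted p = 0.92). The share of the CL minus NC log2 difference still present in CL+CX was 60.9% for Cybb, 52.2% for Ncf1, 47.3% for Ncf4, 47.1% for Cyba and 28.2% for Rac2, ratios of means without a test of their order.

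**Figure D2:**
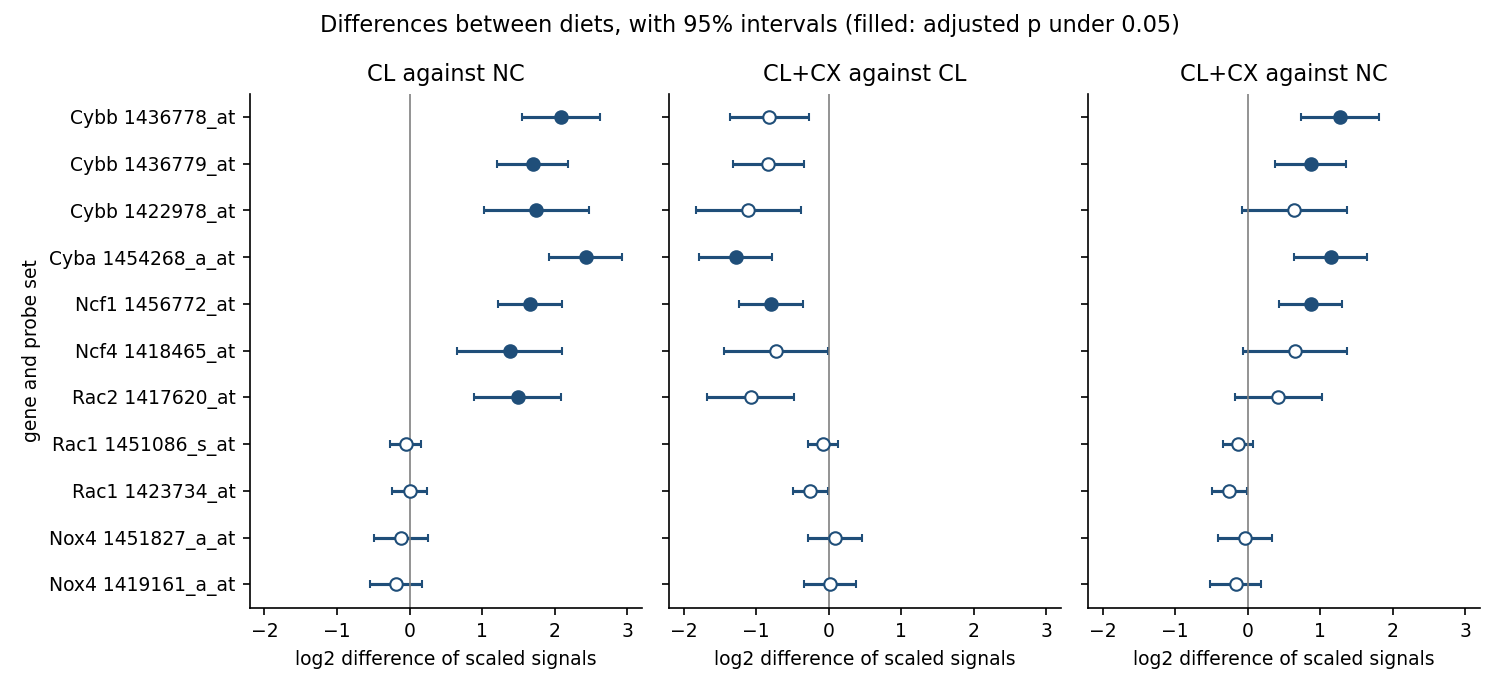
Log2 difference of scaled signals (horizontal axis) with its 95% interval at each of the 11 tested probe sets, for the 3 comparisons of diets. Filled points passed the adjusted p threshold of 0.05: 7 probe sets in CL against NC, 2 in CL+CX against CL and 4 in CL+CX against NC.

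Within each diet some mice were low or high in most of the 5 genes that rose. Their mean log2 signal relative to the NC mean ran from -0.60 in NC replicate 1 to 0.23 in NC replicate 4, and from 1.54 in CL replicate 2 to 2.07 in CL replicate 4. In CL+CX it was 1.45, 0.54, 0.45, 0.77 and 1.15 in replicates 1 to 5. NC replicate 1 was the lowest NC mouse in 4 of the 5 genes, CL replicate 2 the lowest CL mouse in 4, and CL+CX replicate 1 the highest CL+CX mouse in 4. The SD of these genes was 0.27 to 0.95 in NC, 0.12 to 0.34 in CL and 0.27 to 0.72 in CL+CX, in log2 units.

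Related members were compared with each other by the change of their log2 difference between diets, with a two-sided exact permutation test over mice, for 4 pairs in 3 comparisons, adjusted over the 12 tests. The smallest p that 5 mice against 5 allow is 0.00794. The difference Rac2 minus Rac1 was 1.55 log2 units larger in CL than in NC (exact p = 0.00794, adjusted p = 0.0476). The difference Cybb minus Nox4 was 2.21 log2 units larger (exact p = 0.00794, adjusted p = 0.0476). Both members of each pair were measured on the same arrays, and in both pairs the difference was larger in every CL mouse than in any NC mouse. Rac2 and Cybb had already been seen to rise and Rac1 and Nox4 to change little, so these 2 results restate those signals. Their adjusted p lay under 0.05 only because both pairs reached the smallest possible p.

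The subunits that work together did not part by a called amount. Cybb minus Cyba changed by -0.34 from NC to CL (exact p = 0.127, adjusted p = 0.218) and by 0.47 from CL to CL+CX (exact p = 0.0317, adjusted p = 0.0951). Ncf4 minus Ncf1 changed by -0.28 and 0.07 in the same comparisons (exact p = 0.46 and 0.794). These tests do not show that the pairs acted alike. Without CL+CX replicate 1, the change of Rac2 minus Rac1 from CL to CL+CX was -1.23 (exact permutation, adjusted p = 0.0238), against -0.99 with all mice (adjusted p = 0.111). That of Cybb minus Cyba was then 0.56 (adjusted p = 0.0238). Each passed in only this 1 of the 15 cases with 1 mouse left out, and the adjusted p ran up to 0.19 and 0.171.

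The genes whose signals followed each subunit most closely were found by the root mean square difference of log2 signals, each relative to its own NC mean, over the 15 mice and 10514 genes. For Cybb they were Ctss, a lysosomal protease of macrophages (0.23), Cd53, a tetraspanin of leukocytes (0.26), and AI662270 (0.27). For Cyba they were Cd53 (0.22), Ctss (0.25) and Tyrobp, the adaptor of myeloid receptors (0.28). Cyba itself was 0.35 from Cybb, and 14 genes lay nearer to Cybb than that. For Ncf1 they were Axl, a receptor for cells marked for removal (0.22), Fermt3, an integrin activator of blood cells (0.23), and Rgs2 (0.26). For Rac2 they were Rab8b (0.31), Arhgdib (0.32), and Srgn, a proteoglycan of secretory granules (0.34). Ncf4 had no gene as close, with Tor4a (0.36), Snn (0.37) and Sh3pxd2b (0.38) nearest. Genes nearer than the nearest other member numbered 9 for Cyba, 105 for Ncf1, 79 for Rac2 and 19 for Ncf4. Each distance includes the differences between diets as well as those between mice of a diet.

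Of the other genes listed for the oxidase pathway, 42 of 71 were tested, and 9 were higher and 2 lower in CL than in NC. Among upstream activators and brakes 5 of 16 tested genes rose. They were Pla2g4a, the cytosolic phospholipase whose arachidonate stimulates the oxidase (4.47-fold, log2 difference 2.16, adjusted p = 0.000241), Arhgdib (1.54, adjusted p = 0.00281), Prkcb, a kinase that phosphorylates the organiser subunit (1.28, adjusted p = 0.00557), Syk, the kinase below phagocytic receptors (0.95, adjusted p = 0.00146), and Prex1, a Rac exchange factor named after its values were seen (0.87, adjusted p = 0.00803). Their list had a median log2 difference of 0.13, against -0.08 over all genes. With β-cryptoxanthin 2 of these 16 were lower than in CL, Pla2g4a (-1.11, adjusted p = 0.0468) and Syk (-0.68, adjusted p = 0.0361). Pla2g4a was below the array median in 4 NC mice and 1 CL+CX mouse but in no CL mouse. It was thus tested only through CL, where it was high, and its differences from CL are not independent of the filter.

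Of the 5 tested transcription factors known at phagocyte oxidase promoters, 3 rose in CL. Spi1, which encodes PU.1, differed by 1.57 log2 units (adjusted p = 0.000258), Irf8 by 1.10 (adjusted p = 0.00887) and Irf1 by 0.90 (adjusted p = 0.0459). None was called by limma between CL+CX and CL (1 at an unadjusted p under 0.05 and 1 by the methods' test), where Spi1 gave -0.75 (adjusted p = 0.0607), Irf8 -0.43 and Irf1 0.19. Spi1 and Irf1 were called higher in CL+CX than in NC, by 0.82 (adjusted p = 0.0227) and 1.09 (adjusted p = 0.0229).

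Of 4 tested partner genes of the oxidases, none was called in CL by limma (3 at an unadjusted p under 0.05) or by the methods' test. Cybc1, a chaperone that the flavocytochrome needs, gave 0.34 in CL (adjusted p = 0.0727) and was lower in CL+CX than in CL by -0.46 log2 units (adjusted p = 0.0481). Noxo1 was below the array median in every mouse. In CL+CX against NC 1 of the 4 was lower, Poldip2, a Nox4 partner named after its values were seen (-0.67, adjusted p = 0.013).

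None of the 10 tested genes for superoxide and peroxide removal was called in any comparison, and their median log2 difference of CL from NC was -0.10. The largest of these differences was that of Sod3, the extracellular superoxide dismutase (0.82, adjusted p = 0.0718), and the lowest that of Sod1, the cytosolic one (-0.42, adjusted p = 0.0582), both named after their values were seen. At an unadjusted p under 0.05 the limma fit passed 2 of the 10 in CL against NC, 2 in CL+CX against CL and 1 in CL+CX against NC, and the methods' test called 1 in the last of these, Sod1. Of 7 tested oxidant-producing enzymes outside the family, Xdh, which encodes xanthine oxidoreductase, rose in CL (0.76, adjusted p = 0.00871) and the monoamine oxidases Maoa (-0.61, adjusted p = 0.0161) and Maob (-0.48, adjusted p = 0.0251) fell. Xdh did not share the lower level of the phagocyte subunits with β-cryptoxanthin, at 0.32 against CL (adjusted p = 0.309) and 1.09 against NC (adjusted p = 0.00163).

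**Figure D3:**
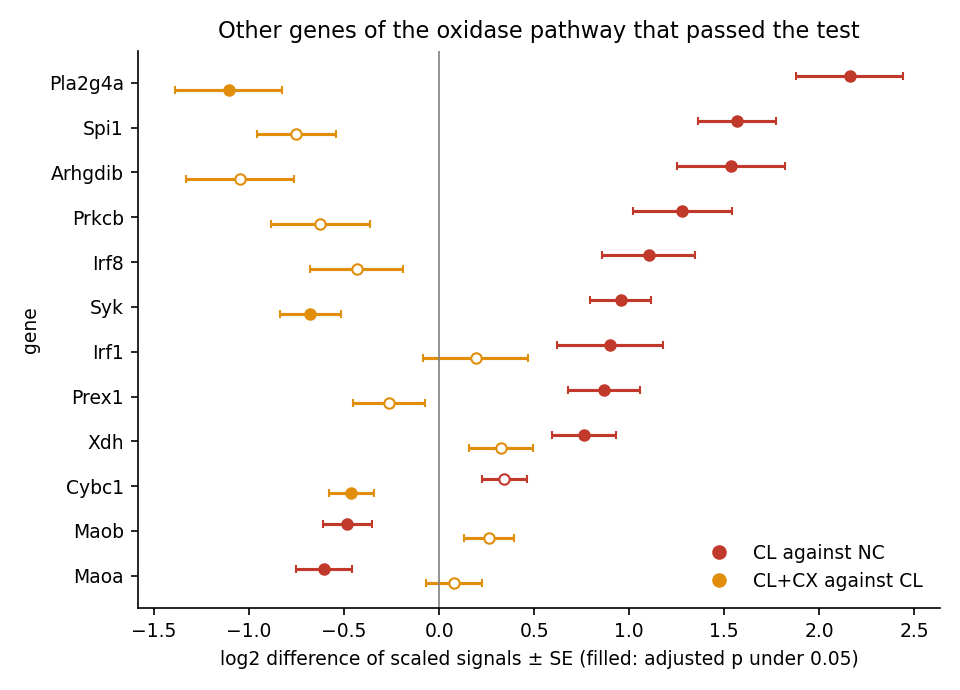
Log2 difference of scaled signals ± SE (horizontal axis) of CL from NC (red) and of CL+CX from CL (orange) for the 12 other pathway genes called in at least 1 of them. Filled points passed the adjusted p threshold of 0.05: 11 in CL against NC and 3, Pla2g4a, Syk and Cybc1, in CL+CX against CL.

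Markers of macrophages and monocytes moved with the subunits. All 17 tested markers of 18 listed were higher in CL than in NC, with a median log2 difference of 2.06, among them Lyz2, the macrophage lysozyme (3.05), and Fcgr1, an immunoglobulin receptor (2.41). Ccr2, the chemokine receptor of monocytes, lay below the array median in all NC mice and was at least 3.39-fold higher in CL, the bound at which it enters that median. With β-cryptoxanthin 12 of the 17 were lower than in CL, with a median of -1.08, and Ccr2 was not among them (-0.40, adjusted p = 0.452). Their summed scaled signal was 1387 to 2862 in NC, 8456 to 10440 in CL and 2860 to 6680 in CL+CX. The order of the CL+CX mice in the mean of these markers, 1.48, 0.74, 0.40, 0.83 and 1.32 log2 units above NC in replicates 1 to 5, was the order of the oxidase subunits. In the CL mice the orders differed in replicates 3 and 5, and in the NC mice replicate 1 was lowest in both while the other replicates were ordered differently. Ctss and Tyrobp, close to Cybb and Cyba, are members of this marker list. The part of these cells in the subunits' differences was not tested.

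**Figure D4:**
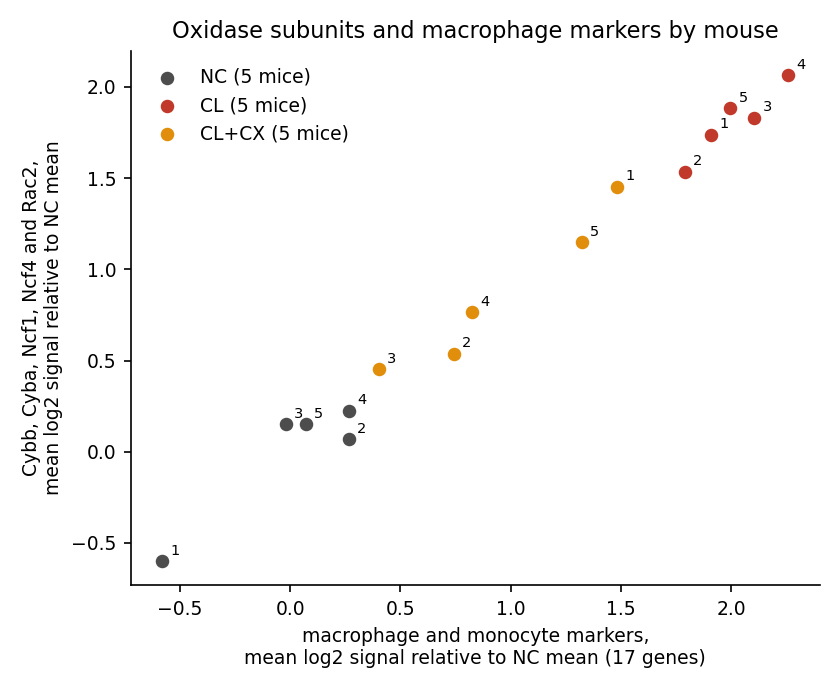
Mean log2 signal relative to NC of Cybb, Cyba, Ncf1, Ncf4 and Rac2 (vertical axis) against that of 17 macrophage and monocyte markers (horizontal axis), with 1 point per mouse labelled by replicate number. CL mice lie at the upper right, NC mice at the lower left, and CL+CX mice between them, with replicates 1 and 5 nearest to CL. The points share array and diet, so no correlation is given.

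Markers of the other cells that carry oxidase subunits moved less uniformly. Of 8 Kupffer cell markers 5 were higher in CL by limma and 1 by the methods' test. Marco (2.24), Cd5l (1.84) and Vsig4 (1.61) rose, while Cd163 (-0.81, adjusted p = 0.427) and Slc40a1 (0.32, adjusted p = 0.33), named after their values were seen, did not pass. None of the 8 was called by limma between CL+CX and CL, where the median log2 difference was -0.81 (4 at an unadjusted p under 0.05, and 1 by the methods' test). Their summed signal was 1423 to 2331 in NC, 2685 to 6143 in CL and 2212 to 3278 in CL+CX. The mean of the Kupffer cell markers was 0.60, 0.45, 0.27, 0.35 and 0.47 log2 units above NC in CL+CX replicates 1 to 5. As in the subunits, replicates 1 and 5 were highest and replicate 3 lowest. In CL it was 0.18, 1.94, 1.97, 0.16 and 1.30, lowest in replicate 4, where the subunits were highest. Of 11 neutrophil markers listed 3 were tested and none was called by limma or the methods' test, with a median of 0.94 in CL against NC, where 1 passed at an unadjusted p under 0.05. All 3 reached the array median in every mouse of the CL diet only, so their median is not independent of the filter. Camp and Cxcr2 of that list were below the array median in every mouse, and the summed signal of the list was 74.2 to 133.7 in NC, 103.1 to 226.4 in CL and 60.2 to 243.7 in CL+CX. The mean of the tested neutrophil markers relative to NC was 1.42, -0.19, -0.77, -0.52 and 0.59 in CL+CX replicates 1 to 5. Replicates 1 and 5 were again highest and replicate 3 lowest.

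Markers of sinusoidal endothelial cells were lower with β-cryptoxanthin. None of the 8 was called in CL against NC by either test or at an unadjusted p under 0.05, with a median log2 difference of 0.10. In CL+CX against CL all 8 differences were below 0, with a median of -0.69, beside -0.79 for the 7 oxidase genes. Of these, 2 were called by limma, Oit3 (-0.97, adjusted p = 0.0282) and Clec4g (-0.83, adjusted p = 0.0349), 6 passed at an unadjusted p under 0.05 and 0 passed by the methods' test. The summed endothelial signal was 1144 to 1453 in NC, 1318 to 1696 in CL and 646.4 to 1411 in CL+CX. The part of these cells in the subunits' fall was not tested.

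The remaining lists gave few calls. Of the T cell markers 1 was tested, Cd3g, and it rose in CL by limma (1.01, adjusted p = 0.0453) but not by the methods' test, while Cd4 and Cd8b1 were below the array median in every mouse. Cd3g was below it in 4 NC and 3 CL+CX mice but in no CL mouse, so it was tested only through CL, where it was high. None of 3 tested B cell markers and none of 7 tested stellate cell markers was called by limma or the methods' test, and in CL against NC 1 of each list passed at an unadjusted p under 0.05. The B cell markers Cd79b and Cd22 reached the array median in every mouse of the CL diet only. Their differences from CL are thus not independent of the filter. In CL+CX the mean of the B cell markers was highest in replicates 1 and 3, at 0.57 and 0.49 log2 units above NC. Of 7 tested hepatocyte markers Hnf4a fell in CL by limma (-0.56, adjusted p = 0.0224), 0 passed by the methods' test and 5 at an unadjusted p under 0.05, and the median of the list was -0.36.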

How the data were processed

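Total RNA of frozen liver from 15 mice was labelled and hybridised by the authors, 1 Affymetrix Mouse Genome 430 2.0 array per mouse, and summarised as MAS5 signals. As deposited, each probe set has a linear intensity, and the 75th percentiles differ between arrays, from 41.5 to 79.0. Multiplying by 1 factor per array brought this percentile to 54.1, values below 1 were raised to 1 (11.3% of all values), and log2 was taken. The 64 control probe sets were left out of the tests. A fold against a group below the median on all its arrays is given as a lower bound.

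The 3 group means were fitted together with limma 3.58.1 in R 4.3.3, with Benjamini-Hochberg adjustment over 20342 probe sets and a threshold of 0.05. What is called the methods' test is Welch's analysis of variance over the same signals, adjusted alike. The study's methods name Tukey's test for the pairs, for which its form for unequal variances, Games-Howell, was used here. The pair's own p from Games-Howell was not adjusted over probe sets. The adjusted p printed for this test is the larger of it and the adjusted p over the 3 groups, unlike the limma value. Pairs of members were compared by exact permutation over mice. The fit was tested on simulated data. Symbols came from the platform annotation, with 34958 probe sets naming 1 gene, 932 several and 9211 none listed. Promoters came from RefSeq (GRCm38.p6).

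The members, gene lists and tests were chosen with earlier results of these data known. The text names every member probe set, up to 4 called genes with the largest differences per pathway list and up to 3 per cell type list, and the 3 nearest genes of each member called in CL against NC. Replicate numbers were not taken as pairs, since the deviations of mice with the same number from their group means correlated at -0.13 to 0.14, over 0.1 in 1 of 5 pairs of CL and NC and in none of the others. Alternatives were other filters, scalings, offsets and tests, the β-actin covariate, the replicate number as a block, gene means and leaving out each mouse.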

Additional observations from a re-analysis of the deposited data

Results flagged for a closer look

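The Ncf1 signal (1456772_at) of CL replicate 2, 61.2, stood apart from the other CL mice, whose signals ran from 83.9 to 93.9, with a gap to the nearest of them of 0.736 of the group's range. The same mouse was the lowest of the CL mice in 4 of the 5 genes that rose, and its array correlated least with the others of its diet (mean r 0.941). Of 45 groups of 5 signals examined this was the only one flagged, and chance alone flags about 1 in 20. Without this mouse, Ncf1 differed by 1.77 log2 units between CL and NC (adjusted p = 0.000174) and by -0.91 between CL+CX and CL (adjusted p = 0.0398), and the fall was called in 2 members.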

How the results depend on the processing

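The 5 rises in CL kept their direction under every alternative run, and the count of members called in CL against NC stayed at 4 or 5 except under the filter at the array 75th percentile, where 3 were called because Ncf4 and Rac2 were not tested. It was 5 without each mouse in turn, and the count in CL+CX against NC was 3. The 2 falls in CL+CX against CL depended on the processing. With no filter, and with the β-actin covariate, 0 members were called and 0 returned, with 0 pathway genes in that comparison. With the signals as deposited, with only the compared groups in the fit, and with the replicate block, 1 was called and 1 returned (Cyba), with 0 pathway genes. Adding 16 to every signal before the log, instead of the floor, 4 were called and 4 returned (Cybb, Cyba, Ncf1 and Rac2), with 5 pathway genes, and with the mean of a gene's probe sets also 4 and 4. Leaving out 1 mouse gave 1 to 3 called, 1 to 3 returned and 0 to 3 pathway genes. The cause was not tested, beyond the fewer probe sets that a stricter filter tests.

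The 11 pathway genes called in CL against NC became 6 by the methods' test and 7 with the covariate, and were 9 to 16 without 1 mouse. The 7 called in CL+CX against NC became 1 with no filter and 3 with the covariate, and were 2 to 10 without 1 mouse. The replicate block changed no other count by over 1.5 times, and numbers alone pair no mice here.

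Signs turned for small differences that were called in no setting. With the signals as deposited, which moved the median probe set up by 0.32 log2 units in CL against NC, to 0.23, and by 0.25 in CL+CX against NC, to 0.21, Rac1 1451086_s_at gave 0.26 and 0.11 in these comparisons, Nox4 1451827_a_at 0.19 and 0.21, and Nox4 1419161_a_at 0.13 and 0.080, and -0.048 in CL+CX against CL. With quantile normalization Rac1 1451086_s_at gave 0.066 in CL against NC and Nox4 1451827_a_at 0.000641 in CL+CX against NC. With the covariate Rac1 1423734_at gave -0.031 in CL against NC. With gene means Cybb minus Cyba changed by -0.22 from NC to CL+CX. Without 1 mouse, Rac1 1423734_at ranged from -0.052 to 0.072 in CL against NC, Nox4 1451827_a_at from -0.014 to 0.17 in CL+CX against CL and from -0.16 to 0.081 in CL+CX against NC, and Nox4 1419161_a_at from -0.10 to 0.11 in CL+CX against CL. Ncf4 minus Ncf1 ranged from -0.074 to 0.15 in CL+CX against CL and from -0.44 to 0.037 in CL+CX against NC. By contrast, 2 larger differences kept their sign. Rac2 minus Rac1 in CL+CX against CL ranged from -1.23 to -0.78 and Cybb minus Cyba from 0.37 to 0.56, and each was called without CL+CX replicate 1 (exact permutation, adjusted p = 0.0238).

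Signals near the array median limit the precision for Ncf4, Rac2 and the weaker Ncf1 and Cybb probe sets.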
